A study of Mus musculus with 8 samples.

Results

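The genes described here carry long-chain fatty acids into mitochondria and oxidise them there. They are 10 gene symbols taken from the deposited count table by name: the carnitine shuttle genes Cpt1a, Slc25a20 and Cpt2, the acyl-CoA dehydrogenase genes Acadvl, Acadl and Acadm, the genes of the trifunctional protein Hadha and Hadhb, the 3-hydroxyacyl-CoA dehydrogenase gene Hadh, and the electron acceptor gene Etfdh. All 10 were among the 56805 symbols of the table, and all 10 passed the low-count filter that left 16006 genes tested. They were read in mouse OT-I CD8+ T cells, whose transgenic receptor recognises an ovalbumin peptide, from OT-I:Rosa26-Cas9 mice on a C57BL/6J background, bred from Rag2/OT-I and Rosa26-Cas9 knock-in parents. In every group the cells were activated in vitro, expressed Cas9 constitutively, received a lentiviral guide vector and were sorted on the vector's CD90.1 marker 3 days after transduction.

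The sgElovl1 cells carried a guide against Elovl1, which encodes an enzyme that elongates very-long-chain fatty acids. The sgNT cells carried a non-targeting guide. The labels name 8 samples, 4 per condition, over 2 experiments, and give neither an age nor the number of distinct guides. The table holds 4 columns of counts, because the study merged the 2 replicate mice of each condition and experiment before deposit, so each value below is 1 merged column and has no error of its own between mice. P-values and intervals therefore rest on the spread among these 4 columns and on a trend of that spread shared by all genes.

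Long-chain fatty acids cross the inner mitochondrial membrane as carnitine esters. CPT1 on the outer membrane makes the ester, a step that malonyl-CoA inhibits, the carrier SLC25A20 exchanges acylcarnitine for free carnitine, and CPT2 on the matrix side restores the acyl-CoA. Each turn of beta-oxidation then runs through a dehydrogenation, a hydration, a second dehydrogenation and a thiolytic cleavage, and the electrons of the first dehydrogenation pass through the electron transfer flavoprotein and ETFDH to ubiquinone. In CD8+ T cells this pathway is best known from the comparison of memory with effector cells.

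Total counts per column ranged between 49068952 and 63623476, so that 3 counts corresponded to 0.0473 to 0.0600 CPM, the unit used below, which is the count scaled by library size and TMM factor. Mitochondrially encoded genes took 14.3% and 9.72% of counts in sgElovl1 cells of experiments 2 and 1, against 10.2% and 7.72% in sgNT cells. All 9 CD8 T cell markers were expressed in every column, with summed levels of 4903 to 5361 CPM. Of 22 markers of other cell types, 5 to 9 were at 0 in each column. The others had counts, and the 22 summed to 36.6 to 81.9 CPM per column. Elovl1 itself was read at 55.8 and 61.2 CPM in sgElovl1 cells of experiments 2 and 1, against 93.5 and 110.4 CPM in sgNT cells. The sgElovl1 columns lay below both sgNT columns, a log2 difference of -0.80 (SE 0.07, edgeR adjusted p = 3.80e-28), while an exact two-sided permutation test of 2 against 2 columns cannot go below p = 0.333, which it gave.

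The 10 genes were clearly expressed and together took a steady share of the transcriptome. They held 0.0570% and 0.0660% of all counts in sgElovl1 cells of experiments 2 and 1, against 0.0605% and 0.0668% in sgNT cells. Their summed levels were 590 and 647 CPM in sgElovl1 cells and 594 and 671 CPM in sgNT cells, in the same order of experiments, so experiment 1 was the higher one under both guides. Per kilobase of exon, using the merged exons of GENCODE M21 for length, the mean over the 4 columns was highest for Acadl at 68.0 CPM per kilobase, then 31.0 for Acadvl and 18.4 for Hadha, and the columns of these genes did not overlap one another. A group of 5 genes followed whose columns overlapped, with means of 7.66 for Cpt1a, 7.45 for Hadh, 7.38 for Acadm, 7.02 for Hadhb and 6.86 for Cpt2 CPM per kilobase. Etfdh at 4.93 and Slc25a20 at 4.33 CPM per kilobase of exon were the lowest. The order depended on the length used, and the authors counted reads over whole genes, introns included, and on another genome build. Per kilobase of whole gene Acadvl came first at 15.9 CPM, then Hadha at 4.37 and Acadl at 4.20. On that scale Hadhb (1.58), Etfdh (1.44) and Acadm (1.30) followed, and Hadh (0.959), Slc25a20 (0.930), Cpt1a (0.923) and Cpt2 (0.835 CPM per kilobase of whole gene) were the lowest. In GENCODE M21 the same-strand genes Gm15793, Gm37973 and Mir1960 overlap Acadl, Etfdh and Hadhb, so reads in those stretches are of uncertain origin. In that annotation (GRCm38) the genes lie on chromosomes 19 (Cpt1a), 9 (Slc25a20), 4 (Cpt2), 11 (Acadvl), 1 (Acadl), 5 (Hadha and Hadhb) and 3 (Acadm, Hadh and Etfdh).

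**Figure D1:**
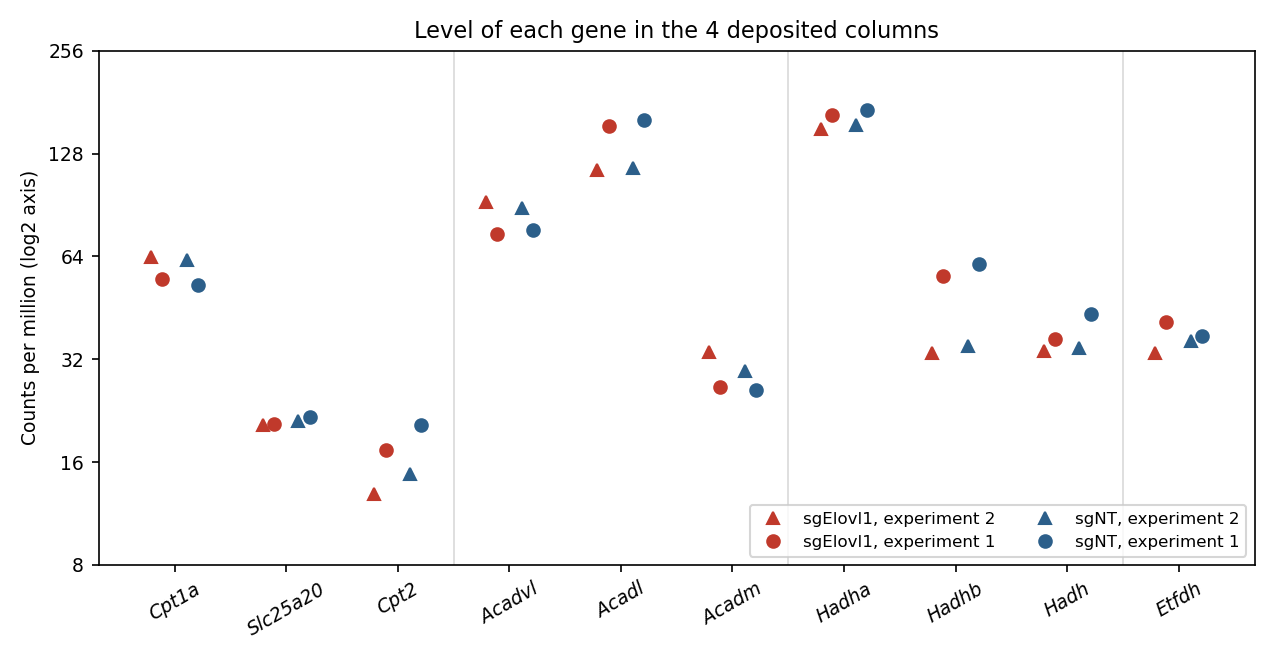
Level of each of the 10 genes in CPM on a log2 axis, with 1 point per deposited column (red sgElovl1, blue sgNT; triangles experiment 2, circles experiment 1) and no error bars because each column is 1 merged value. Triangles and circles separate for most genes, as for Hadhb with triangles at 33.4 and 34.9 CPM and circles at 56.1 and 60.9 CPM. Red and blue points of 1 experiment often lie closer together than the experiments do. Exceptions include Slc25a20, Etfdh, and Hadh, whose sgElovl1 and sgNT points of experiment 1 are at 36.6 and 43.5 CPM.

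The first question was whether targeting Elovl1 altered the transcript level of this pathway. None of the 10 genes passed the threshold of an adjusted p of 0.05 in either direction, in a table where edgeR's quasi-likelihood test called 1.20% of genes tested, 0.762% higher and 0.437% lower. The 10 log2 differences between sgElovl1 and sgNT cells lay between -0.22 (Cpt2) and 0.11 (Acadm), with a median of -0.04 beside -0.01 over all genes tested, 4 above 0 and 6 below. At an unadjusted p under 0.05 the test named 1 of the 10, Cpt2, as it did 10.6% of all genes tested. The 95% intervals of the 10 genes in the edgeR fit together reached no further than 25.2% below and 20.3% above the sgNT level. This bound belongs to that fit, since the DESeq2 Wald test gave each of the 10 genes a larger SE. Its log2 difference was -0.20 for Cpt2 (SE 0.16, against 0.10 in edgeR) and 0.12 for Acadm (SE 0.13, against 0.08 in edgeR). DESeq2 and limma-voom also called none. Only Slc25a20 had columns that did not overlap between the guides, both sgElovl1 columns being the lower ones, 1 of 10 genes beside 12.6% of all genes tested (5.77% higher and 6.85% lower).

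Within the carnitine shuttle, Cpt1a, which encodes the liver-type isoform of carnitine palmitoyltransferase 1 and the malonyl-CoA-sensitive entry step, had 63.7 and 55.0 CPM in sgElovl1 cells of experiments 2 and 1, against 62.4 and 52.9 CPM in sgNT cells. The columns of the 2 guides overlapped, and within each experiment the sgElovl1 column was slightly above its sgNT column. The fitted log2 difference was 0.04 (SE 0.07, 95% interval -0.09 to 0.18, edgeR adjusted p = 0.909). Cpt1a supplied nearly all the Cpt1 signal, with 98.5% and 98.5% of the Cpt1a, Cpt1b and Cpt1c counts in sgElovl1 cells and 98.1% and 99.2% in sgNT cells of experiments 2 and 1. The muscle isoform gene Cpt1b had 28 and 16 counts in sgElovl1 cells and 29 and 18 counts in sgNT cells. The brain-type gene Cpt1c was equally sparse, at 24 and 27 counts in sgElovl1 cells, against 30 and 10 counts in sgNT cells. Its log2 difference was -0.47 in experiment 2 (95% counting interval -1.31 to 0.35) and 1.70 in experiment 1 (0.61 to 2.91), and 0.53 in the fit (SE 0.72, edgeR adjusted p = 0.886).

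Slc25a20, the carnitine-acylcarnitine carrier gene, had 20.5 and 20.7 CPM in sgElovl1 cells of experiments 2 and 1, against 21.2 and 21.6 CPM in sgNT cells. Both sgElovl1 columns lay below both sgNT columns, by a margin smaller than the interval of the fit. That fit gave a log2 difference of -0.05 (SE 0.09, 95% interval -0.23 to 0.12, edgeR adjusted p = 0.914). Cpt2, which encodes the matrix-side transferase, had 12.9 and 17.4 CPM in sgElovl1 cells, against 14.8 and 20.5 CPM in sgNT cells. The guides overlapped because the experiments lay further apart than the guides did, but the sgElovl1 column was the lower one in each experiment, by -0.20 on the log2 scale in experiment 2 and -0.24 in experiment 1. The fit gave -0.22 (SE 0.10, 95% interval -0.42 to -0.02, edgeR adjusted p = 0.405), and no other of the 10 genes had an interval that left out 0.

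The acyl-CoA dehydrogenases start each turn of the cycle and differ in the chain length they prefer. Acadvl, for very-long-chain substrates, had 92.6 and 74.5 CPM in sgElovl1 cells of experiments 2 and 1, against 88.9 and 76.7 CPM in sgNT cells. The guides overlapped, and the sgElovl1 column was the higher one in experiment 2 and the lower one in experiment 1, with a fitted log2 difference of 0.01 (SE 0.07, 95% interval -0.12 to 0.14, edgeR adjusted p = 0.985). Acadl, for long-chain substrates, had 115 and 154 CPM in sgElovl1 cells, against 116 and 160 CPM in sgNT cells. Its columns overlapped between guides and fell into pairs by experiment, and the fitted log2 difference between guides was -0.04 (SE 0.06, 95% interval -0.16 to 0.09, edgeR adjusted p = 0.912). Acadm, for medium-chain substrates, had 33.5 and 26.5 CPM in sgElovl1 cells, against 29.5 and 26.0 CPM in sgNT cells. This gene was the highest of the 10 in sgElovl1 relative to sgNT cells, with the sgElovl1 column above its sgNT column in both experiments, by 0.19 on the log2 scale in experiment 2 (95% counting interval 0.09 to 0.28, which covers counting error only) and 0.03 in experiment 1 (counting interval -0.08 to 0.13). The fit gave 0.11 (SE 0.08, 95% interval -0.05 to 0.27, edgeR adjusted p = 0.713). Acads, the short-chain dehydrogenase gene, had 60.9 and 54.4 CPM in sgElovl1 cells and 59.7 and 59.3 CPM in sgNT cells, with a log2 difference of -0.05.

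The mitochondrial trifunctional protein carries out the later steps for long chains, with the hydratase and dehydrogenase activities on the alpha subunit encoded by Hadha and the thiolase activity on the beta subunit encoded by Hadhb. Hadha had 151 and 166 CPM in sgElovl1 cells of experiments 2 and 1, against 156 and 172 CPM in sgNT cells. Hadhb had 33.4 and 56.1 CPM in sgElovl1 cells, against 34.9 and 60.9 CPM in sgNT cells. Both genes overlapped between guides and were slightly lower in the sgElovl1 column of each experiment. The fitted log2 differences were -0.05 for Hadha (SE 0.06, 95% interval -0.17 to 0.08, edgeR adjusted p = 0.884) and -0.09 for Hadhb (SE 0.07, 95% interval -0.24 to 0.05, edgeR adjusted p = 0.726).

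Hadh, which encodes the soluble matrix dehydrogenase for medium and short 3-hydroxyacyl-CoA, had 33.7 and 36.6 CPM in sgElovl1 cells of experiments 2 and 1, against 34.6 and 43.5 CPM in sgNT cells. The sgNT column of experiment 1 stood above the other 3, and the sgElovl1 column was the lower one in both experiments, by -0.04 on the log2 scale in experiment 2 and -0.25 in experiment 1. The fit gave -0.14 (SE 0.08, 95% interval -0.29 to 0.0044, edgeR adjusted p = 0.495). For the enzymes that serve shorter chains beside HADH, the hydratase gene Echs1 had 27.3 and 34.7 CPM in sgElovl1 cells and 27.3 and 40.3 CPM in sgNT cells, and the thiolase gene Acaa2 had 59.4 and 58.1 CPM in sgElovl1 cells and 66.1 and 59.8 CPM in sgNT cells. Their log2 differences were -0.11 and -0.10, and neither passed the edgeR test (adjusted p = 0.674 for Echs1 and 0.677 for Acaa2).

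Etfdh, which encodes the oxidoreductase that hands electrons to ubiquinone, had 33.5 and 41.1 CPM in sgElovl1 cells of experiments 2 and 1, against 36.1 and 37.3 CPM in sgNT cells. The sgElovl1 columns were the lowest and the highest of the 4 and enclosed the sgNT columns. The log2 difference was -0.11 in experiment 2 (95% counting interval -0.20 to -0.02) and 0.14 in experiment 1 (0.05 to 0.22), and 0.02 in the fit (SE 0.08, 95% interval -0.13 to 0.16, edgeR adjusted p = 0.977). For its partner, the electron transfer flavoprotein, Etfa had 37.4 and 56.3 CPM in sgElovl1 cells and 36.0 and 63.6 CPM in sgNT cells, a log2 difference of -0.07. Etfb had 44.2 and 28.4 CPM in sgElovl1 cells and 37.6 and 32.0 CPM in sgNT cells, a log2 difference of 0.03 in the fit (SE 0.08, edgeR adjusted p = 0.940). The Etfb difference was 0.24 in experiment 2 (95% counting interval 0.15 to 0.32) and -0.17 in experiment 1 (-0.27 to -0.08).

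Across the 10 genes, 8 had the same sign of the sgElovl1 difference in both experiments, 2 above 0 (Cpt1a and Acadm) and 6 below (Slc25a20, Cpt2, Acadl, Hadha, Hadhb and Hadh), while Acadvl and Etfdh had opposite signs. These signs are a description of 4 columns, since 9 of the 10 intervals included 0.

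**Figure D2:**
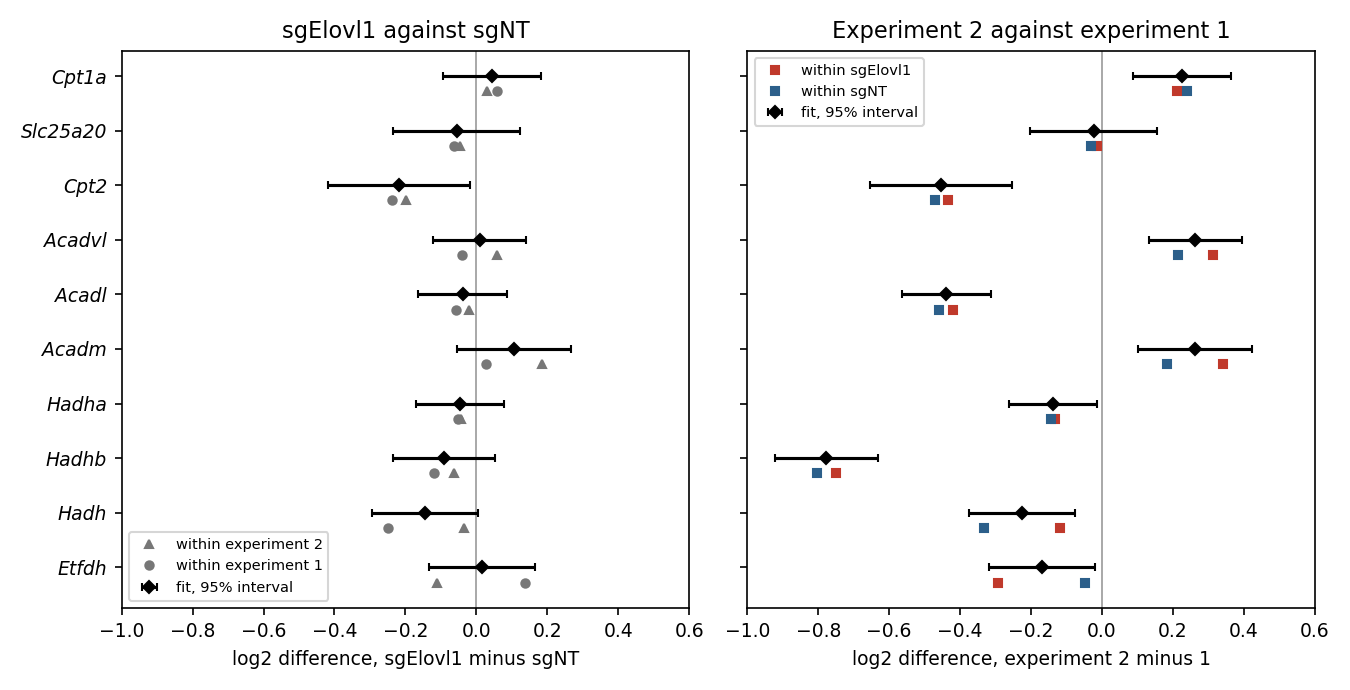
Log2 difference of each gene with its 95% interval from the edgeR fit (black), for sgElovl1 minus sgNT on the left and experiment 2 minus experiment 1 on the right; coloured or grey points are the same difference within each experiment or each guide. On the left 9 of 10 intervals include 0, and on the right 3 genes lie wholly above 0 and 6 wholly below.

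The neighbouring genes of the pathway did not pass the test between guides either. No gene was called in either direction among 7 tested genes of carnitine handling, 15 other beta-oxidation enzymes, 4 genes of the electron transfer flavoprotein, 9 of malonyl-CoA and AMPK control, 9 PPAR and PGC-1 regulators, 6 PPAR targets outside beta-oxidation, 5 of ketone body metabolism or 6 acyl-CoA thioesterases. The medians of these lists lay between -0.07 and 0.02 on the log2 scale. The smallest edgeR adjusted p among them belonged to Ivd, the isovaleryl-CoA dehydrogenase gene of leucine breakdown, with 54.8 and 51.5 CPM in sgElovl1 cells of experiments 2 and 1, against 50.3 and 41.2 CPM in sgNT cells, a log2 difference of 0.22 (SE 0.07, adjusted p = 0.106). The carnitine importer gene Slc22a5 had 18.7 and 17.2 CPM in sgElovl1 cells, against 16.3 and 14.5 CPM in sgNT cells, and a log2 difference of 0.22 (SE 0.10, edgeR adjusted p = 0.399). Prkab2, which encodes a regulatory subunit of AMPK, had 4.31 and 6.14 CPM in sgElovl1 cells, against 5.70 and 8.52 CPM in sgNT cells, and a log2 difference of -0.44 (SE 0.17, edgeR adjusted p = 0.236). Further genes nearest to the threshold in their lists had log2 differences of -0.10 (Aldh9a1), 0.21 (Acadsb), 0.24 (Etfbkmt), -0.26 (Etfrf1), 0.12 (Stk11), -0.12 (Rxra), -0.10 (Nrip1), -0.17 (Angptl4), 0.09 (Acot2), -0.13 (Slc16a1), -0.08 (Oxct1), -0.11 (Acot7) and 0.11 (Acot13).

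For each of these genes but Slc25a20, the larger fitted difference was the one between the experiments. Experiment 2 differed from experiment 1 past the threshold in 8 of the 10 genes, 3 higher (Cpt1a, Acadvl and Acadm) and 5 lower (Cpt2, Acadl, Hadhb, Hadh and Etfdh), in a table where edgeR called 55.6% of all genes tested, 26.4% higher and 29.2% lower. The columns of the experiments did not overlap in 9 of the 10 genes, the 8 above and Hadha, 3 higher and 6 lower, beside 75.8% of all genes tested (37.4% higher and 38.4% lower). Differences between the experiments were thus widespread, and the 10 genes took part in them in both directions. In size the 10 genes did not stand out as large. Their median absolute log2 difference between the experiments was 0.24, against 0.47 over all genes tested. The sign of the difference was the same under both guides in all 10 genes. The count of 8 came to 5 with either DESeq2 test, to 5 without the sgNT column of experiment 2, and to 3 (Cpt2, Acadl and Hadhb) without the sgElovl1 column of experiment 2, where none of the higher genes was called. The labels give nothing but a number to tell the experiments apart.

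The largest difference was in Hadhb, lower in experiment 2 by -0.75 on the log2 scale within sgElovl1 cells and -0.80 within sgNT cells. The fit gave -0.78 (SE 0.07, 95% interval -0.92 to -0.63, edgeR adjusted p = 7.84e-25), which is a level 41.6% lower. Cpt2 followed at -0.45 (SE 0.10, edgeR adjusted p = 2.86e-05) and Acadl at -0.44 (SE 0.06, edgeR adjusted p = 3.90e-11). These 3 genes were called in all 12 alternative fits. Hadh fell by 0.23 on the log2 scale (SE 0.08, edgeR adjusted p = 0.00654) and was called in 5 of 12 alternatives, and Etfdh at -0.17 (SE 0.08, edgeR adjusted p = 0.0463) was called in 2 of 12.

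The genes higher in experiment 2 encode the entry step and the very-long-chain and medium-chain dehydrogenases. Acadvl was higher by 0.26 (SE 0.07, edgeR adjusted p = 2.16e-04), at 0.31 within sgElovl1 cells and 0.21 within sgNT cells, and was called in 11 of 12 alternatives. Acadm was higher by 0.26 (SE 0.08, edgeR adjusted p = 0.00314) and Cpt1a by 0.23 (SE 0.07, edgeR adjusted p = 0.00301), each called in 9 of 12 alternatives. Hadha, at -0.14 (SE 0.06, edgeR adjusted p = 0.0537), and Slc25a20, at -0.02 (SE 0.09, 95% interval -0.20 to 0.16, edgeR adjusted p = 0.854), did not pass the threshold.

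**Figure D3:**
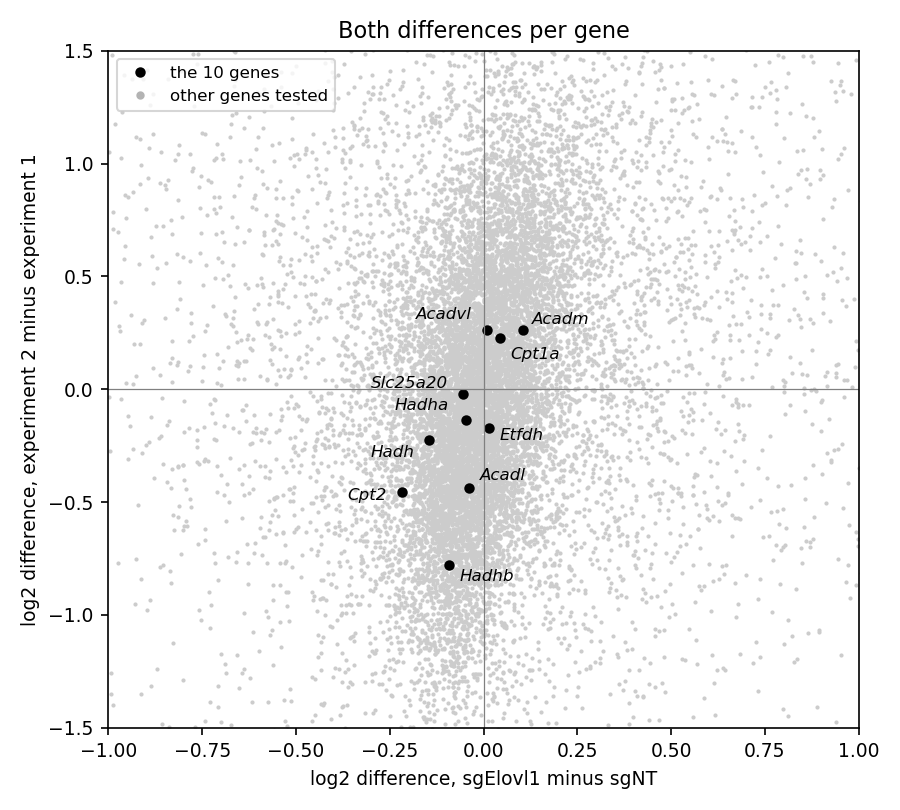
Each grey point is a gene tested, with the log2 difference of sgElovl1 minus sgNT across and that of experiment 2 minus experiment 1 upward; the 10 genes are black and named, and 1661 of 16006 genes lie outside the axes. The 10 genes span -0.22 to 0.11 across and -0.78 to 0.26 upward, within the cloud of all genes.

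Other sample measures moved with the experiment as well. The mitochondrially encoded share was higher in experiment 2 under each guide, and also higher in sgElovl1 than in sgNT cells within each experiment (values above). The 22 markers of other cell types summed to 81.9 and 42.9 CPM in sgElovl1 cells of experiments 2 and 1 and to 81.7 and 36.6 CPM in sgNT cells. Pecam1 alone made up 50.8 and 29.7 CPM of this in sgElovl1 cells and 48.9 and 24.7 CPM in sgNT cells. Of the 12 markers that could be tested, 5 were called higher in experiment 2 (Itgax, Pecam1, Foxp3, Itgam and Cpa3) and 1 lower (Epcam). Ms4a1, Ncr1, Hbb-bs and Ppbp were at 0 in every column. Of the 9 CD8 T cell markers 6 were called higher and 1 lower. These marker counts are to be read beside the 55.6% of all genes tested that were called between the experiments, 26.4% higher and 29.2% lower. The part of these measures in the differences of the 10 genes was not tested, and in bulk samples fewer expressing cells and less RNA per cell cannot be told apart.

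Subunit genes of the same complex differed in count ratio between the experiments. Hadha and Hadhb encode the subunits of 1 protein, and the Hadhb count per Hadha count was 0.221 and 0.339 in sgElovl1 cells of experiments 2 and 1, against 0.224 and 0.355 in sgNT cells. Both columns of experiment 2 lay below both columns of experiment 1, and the 95% intervals of the difference between experiments did not meet, at -0.92 to -0.63 for Hadhb and -0.26 to -0.01 for Hadha. The subunit genes of the electron transfer flavoprotein parted in the other direction, with 1.18 and 0.504 Etfb counts per Etfa count in sgElovl1 cells, against 1.04 and 0.504 in sgNT cells. Etfa was lower in experiment 2 (log2 -0.71, edgeR adjusted p = 4.88e-21) and Etfb higher (log2 0.44, edgeR adjusted p = 6.30e-08). In GENCODE M21 the same-strand genes Gm45233, Gm44816 and Mir7051 overlap Etfb, so reads in those stretches are of uncertain origin.

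**Figure D4:**
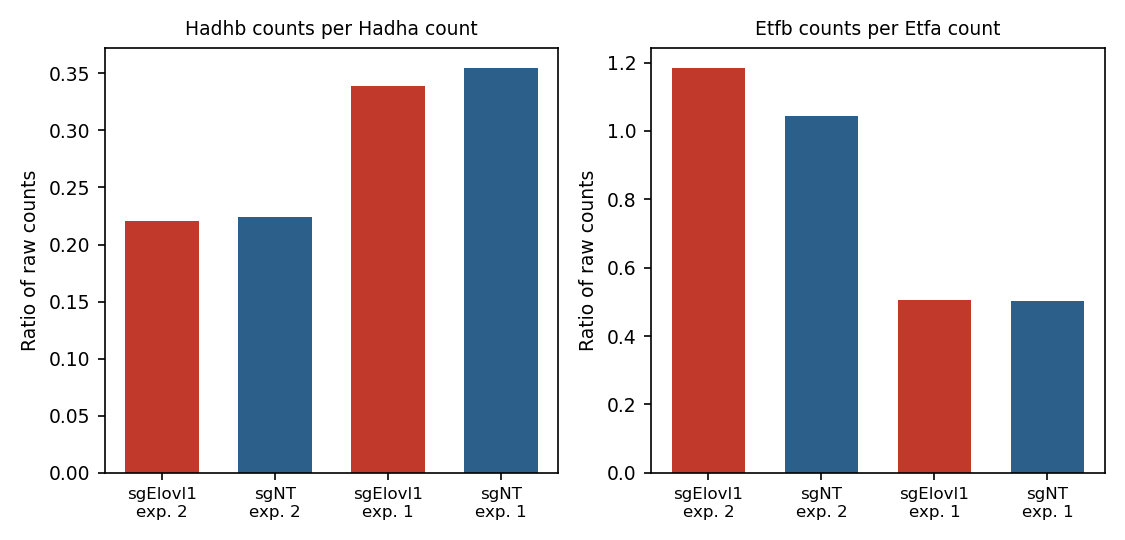
Ratio of raw counts between the subunit genes of the trifunctional protein (left) and of the electron transfer flavoprotein (right) in each deposited column, red sgElovl1 and blue sgNT, with no error bars because each column is 1 merged value. The left ratio is 0.221 and 0.224 in experiment 2 and 0.339 and 0.355 in experiment 1, and the right one is 1.18 and 1.04 in experiment 2 and 0.504 and 0.504 in experiment 1.

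Hadha and Hadhb lie head to head on opposite strands of chromosome 5. In GENCODE M21 their outermost starts are 85 bases apart, and the RefSeq starts used for the promoter windows are 273 bases apart. The interval between the genes is shown because the pair shares it while its count ratio differed between the experiments. It spans chr5:30155163-30155247 of GRCm38.p6 and is written on the Hadhb strand from the RefSeq promoter sequence, with the 2 matches to the GC box GGGCGG in capitals.
Hadha-Hadhb interval: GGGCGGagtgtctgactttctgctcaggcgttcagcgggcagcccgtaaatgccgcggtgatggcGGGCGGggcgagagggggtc

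The RefSeq promoter windows of all 10 genes (250 bases before to 50 after the start, GRCm38.p6) were searched on both strands for 6 motifs, chosen after the values were known. The nuclear receptor half-site AGGTCA was in the windows of Cpt1a, Acadm and Acadvl, 3 of 10, and in 16.3% of 32851 windows. These are the 3 genes called higher in experiment 2, and the stretches that hold the match are shown for that reason, 30 bases each on the strand of the gene, with the match in capitals (read as TGACCT where it lies on the opposite strand). The first lies at chr19:3323195-3323224, the second at chr3:153944864-153944893 and the third at chr11:70015498-70015527, with the match starting 94, 249 and 87 bases before the start site.
Cpt1a: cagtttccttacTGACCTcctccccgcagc
Acadm: gTGACCTtcgggctccggtgacactgggca
Acadvl: atggatcaccctAGGTCAggtagaatacag

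Over all tested genes with a window, 30.7% of 1568 genes with AGGTCA were called higher in experiment 2, against 27.2% of 8872 genes without it. Called lower were 33.0% of those with AGGTCA, against 34.8% of those without it. The GC box GGGCGG was in the windows of 8 of the 10 genes, all but Acadm and Acadvl, and in 35.7% of all windows. The only Hadha match is the same stretch of DNA as a Hadhb match, because the windows of this pair overlap. The full PPAR-RXR direct repeat of that half-site, spaced by 1 base, and the longer ERR element TCAAGGTCA, both of which contain the half-site, and the E-box CACGTG were in none of the 10, and in 0.0396%, 0.423% and 7.15% of all windows. The NRF1 motif was in the window of Etfdh alone among the 10 genes, and in 0.971% of all windows. Such matches describe letters in a window and are neither sites nor causes.

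Counts of called genes in the neighbouring lists are to be read against the 55.6% of all genes tested that were called between the experiments. Among 15 other beta-oxidation enzymes 3 were higher and 7 lower in experiment 2, led by Acat1, the mitochondrial acetoacetyl-CoA thiolase gene, at 45.7 and 76.2 CPM in sgElovl1 cells of experiments 2 and 1 and 47.5 and 76.8 CPM in sgNT cells (log2 -0.72, edgeR adjusted p = 2.43e-23). Eci1, an enoyl-CoA isomerase gene, was lower too (log2 -0.68, edgeR adjusted p = 2.70e-11), and Acad10 was higher (log2 0.90, edgeR adjusted p = 1.15e-10). Of 7 carnitine handling genes 1 was lower, Aldh9a1 of carnitine synthesis (log2 -0.76, edgeR adjusted p = 5.39e-27), and none higher, with Crot at 0.12 and Slc22a5 at 0.15.

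Among 9 genes of malonyl-CoA and AMPK control, which act on the entry step, 3 were higher and 2 lower in experiment 2, a share equal to the 55.6% over all genes tested. Acaca, whose product makes malonyl-CoA, had 59.5 and 83.7 CPM in sgElovl1 cells of experiments 2 and 1 and 60.0 and 96.1 CPM in sgNT cells (log2 -0.59, edgeR adjusted p = 4.73e-17). Mlycd, whose product degrades malonyl-CoA, was higher (log2 0.33, edgeR adjusted p = 5.87e-04), as was Stk11, which encodes the AMPK kinase LKB1 (log2 0.41, edgeR adjusted p = 3.37e-10). Of 9 PPAR and PGC-1 regulators 3 were higher and 5 lower, with the coactivator gene Pprc1 at log2 -1.16 (edgeR adjusted p = 1.51e-40), Rxrb at 0.64 (2.61e-21) and Esrra, the gene of the estrogen-related receptor alpha, at 0.61 (1.72e-13).

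In the lists around the pathway, 1 of 6 PPAR targets outside beta-oxidation was higher in experiment 2 (Acot2, log2 0.89) and 2 were lower (Angptl4, -0.67, and Plin2, -0.59). Of 5 genes of ketone body metabolism 2 were higher and 3 lower, with the mitochondrial acetyl-CoA synthetase gene Acss1 at log2 1.40, the monocarboxylate transporter gene Slc16a1 at -1.32 and Bdh1 at -0.57. Of 6 acyl-CoA thioesterases 1 was higher (Acot2) and 1 lower (Acot7, -0.60), with Acot9 at -0.14.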

How the data were processed

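Merged counts of 4 columns, each the sum of 2 replicate mice, were analysed. The authors aligned strand-specific mRNA reads to GRCm39 with STAR 2.7.10b and counted raw reads per gene with featureCounts 2.0.1 in R 4.3.3 over whole genes on the reverse strand, so intronic reads are included; these deposited counts were used as they are. The annotation release and the treatment of multi-mapping reads are not given in the sources used here, and the table names genes by symbol alone. Counts were tested with edgeR 4.0.16 (quasi-likelihood F test, TMM, filterByExpr by condition with a minimum count of 10, experiment and condition as terms, Benjamini-Hochberg over all genes tested, threshold 0.05), run in R 4.3.3. With 1 residual degree of freedom, gene-wise spread was replaced by the common trend (biological coefficient of variation 6.98%), so intervals do not reflect a gene's own variation between mice. An interaction could not be tested. The test was also run on simulated counts. These had no difference between experiments and followed the common trend of spread, so they do not check a gene's own variation.

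Alternatives were DESeq2 size factors, no low-count filter, a mean of at least 5 CPM, the DESeq2 1.42.0 Wald and likelihood-ratio tests, limma-voom (limma 3.58.1), the other factor left out, the mitochondrially encoded and the 20 most abundant genes left out, and each of the 4 columns left out, 12 in all. Named genes are Elovl1, the 10 genes, isoforms and partners, and from each list the 2 of smallest p between guides and the 3 of smallest p between experiments. Genes, lists and motifs were chosen with earlier results of these data known. Lengths and sequences come from GENCODE M21 and RefSeq GRCm38.p6, another build than that of the counts. Marker lists for CD8 T cells and other cells served as checks. Intervals of single columns cover counting error only.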

Additional observations from a re-analysis of the deposited data

Results flagged for a closer look

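The difference between sgElovl1 and sgNT cells had opposite signs in the experiments for 2 of the 10 genes. For Acadvl it was 0.059 on the log2 scale in experiment 2 and -0.041 in experiment 1, and for Etfdh it was -0.11 in experiment 2 and 0.14 in experiment 1. With 1 merged column per guide and experiment, these differences between the experiments were not tested.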

How the results depend on the processing

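No paired analysis was possible because each deposited column sums the replicate mice, so samples cannot be matched by replicate number; the experiment term does compare the guides within each experiment. Between guides none of the 10 genes was called under any of the 12 alternatives, and each kept its sign under the 8 that retain all columns. Leaving out a column leaves the condition as the only term, so the difference between experiments enters: the log2 values then ranged over -0.075 to 0.19 (Cpt1a), -0.45 to 0.030 (Cpt2), -0.13 to 0.16 (Acadvl), -0.26 to 0.20 (Acadl), -0.050 to 0.28 (Acadm), -0.11 to 0.036 (Hadha), -0.52 to 0.36 (Hadhb), -0.28 to 0.021 (Hadh) and -0.13 to 0.18 (Etfdh), while Slc25a20 kept its sign. Elovl1 lost its call in each of the 4 fits without a column (-0.89 to -0.68) and with no experiment term (-0.80), with an edgeR adjusted p of 1.00 each time. Genes called between guides over the whole table numbered 192 (122 higher, 70 lower), 176 with DESeq2 size factors (132 and 44), 94 with no low-count filter, 35 at a mean of at least 5 CPM, 26 with either DESeq2 test, 0 with no experiment term (19 at an unadjusted p under 0.05) and 0 to 6 without a column; the cause was not tested. Between experiments, 8 of the 10 genes were called, 5 with either DESeq2 test (Acadm, Hadh and Etfdh lost) and 3 to 7 without a column: 3 without sgElovl1 of experiment 2 (Acadl, Hadhb and Cpt2 kept) and 5 without sgNT of experiment 2. Slc25a20 changed sign to 0.039 at a mean of at least 5 CPM and ranged over -0.051 to 0.016 without a column. Hadha was called with limma-voom (adjusted p = 0.0362) and with the mitochondrial and most abundant genes left out (0.0485).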
